A study of Mus musculus with 6 samples.

Results

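The genes described here are 10 components of macroautophagy: Sqstm1, Map1lc3a, Map1lc3b, Gabarapl1, Gabarapl2, Ulk1, Becn1, Wipi1, Uvrag and Rb1cc1. They were taken by gene symbol from a table of 54532 mouse genes, in which all 10 were listed. All 10 were also among the 12755 genes with at least 1 TPM (transcripts per 1000000, a unit corrected for gene length) in at least 2 of the 6 libraries, which were the genes tested. The study asked how metformin, a drug for type 2 diabetes, changes the early response of macrophages to LPS, the lipopolysaccharide of Gram-negative bacteria that TLR4 senses. RNA-seq was performed on primary bone-marrow-derived macrophages (BMDMs), which were grown from the marrow of wildtype C57BL/6 mice in medium conditioned by L929 cells. The untreated BMDMs received neither agent, the LPS group received 100 ng/ml LPS for 2 h, and the Met + LPS group was given 5 mM metformin over 6 h before the same LPS exposure. Each of the 3 groups holds 2 libraries. No library with metformin and without LPS was analysed here, so that Met + LPS vs. LPS is a comparison under LPS only. The ages of the mice are not given in the sources used here.

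Macroautophagy encloses cytoplasm, damaged organelles or intracellular bacteria in a double membrane, the autophagosome, which then fuses with lysosomes. It starts with the ULK1 kinase complex, which AMPK and mTORC1 control according to energy and nutrient supply, and goes on through a phosphoinositide 3-kinase complex that marks the growing membrane. Proteins of the ATG8 family (the LC3 and GABARAP proteins) are then attached to the lipids of that membrane, and cargo receptors such as p62, the product of Sqstm1, tie ubiquitin-tagged cargo to them. In macrophages the pathway takes part in the removal of bacteria and in the control of inflammation. The data are transcript levels, and neither protein amounts nor the flux through autophagosomes were measured in these libraries.

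Reads on genes, recovered from the TPM values, numbered between 25457016 and 30762754 per library. The members rested on at least 256 reads in a library (Wipi1 in LPS) and at most 126650 (Sqstm1 in Met + LPS). The 8 macrophage markers examined, among them Csf1r, Cd68 and Lyz2, were all detected at 12.9 TPM or more in every library. Their summed level was 43940 to 45840 TPM in the untreated libraries, 34730 to 35490 TPM after LPS and 28960 to 29080 TPM after Met + LPS. Lyz2 made up most of this sum, at 33980 and 35840, 26970 and 26700, and 21200 and 21380 TPM in the same order. The single markers did not all follow the sum. Adgre1 was at 1510 and 1575, 1750 and 1684, and 1365 and 1351 TPM. Fcgr1 was at 162 and 168, 153 and 177, and 74.9 and 73.8 TPM. The 17 markers of lymphocytes, neutrophils, dendritic cells, mast cells and fibroblasts summed to 3.05 to 4.84 TPM, with none above 1.74 TPM and 2 of them (Cd3g and Mcpt4) at 0 throughout. The part of these marker levels in the results was not tested. In such bulk samples fewer cells of a type and less RNA per cell cannot be told apart. TPM values sum to the same total in each library, so that a change in the total RNA per cell is not visible either.

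Differences were tested with limma on log2(TPM + 1), a scale on which the changes of lowly expressed genes come out too small, and a gene was called at an adjusted p-value under 0.01. The methods describe duplicate cultures without saying whether they came from separate mice, so that the p-values measure the spread between these libraries, which may be technical. With 2 libraries against 2, an exact permutation test of a single gene cannot go below p = 0.333 and was not used. The median tested gene was lower in LPS than in untreated BMDMs by a log2 fold change of -0.48, and lower in Met + LPS than in untreated BMDMs by -0.48, whereas it differed by -0.03 between Met + LPS and LPS. Dividing each library by its median ratio to the other libraries moved those medians to -0.01, 0.00046 and -0.02. Among all called genes, the share that was higher went from 21.3% to 52.6% for LPS vs. untreated, from 44.6% to 47.3% for Met + LPS vs. LPS and from 21.7% to 52.9% for Met + LPS vs. untreated under this rescaling. Values after rescaling are therefore given beside comparisons with untreated BMDMs.

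LPS raised 1 of the 10 members, Sqstm1, and lowered 7 of them (Ulk1, Rb1cc1, Uvrag, Wipi1, Map1lc3a, Map1lc3b and Gabarapl1), while Becn1 and Gabarapl2 were not called. Over all tested genes 16.2% were called higher and 60.1% lower, so that the share of members that fell is near the background. After rescaling, 3 members were higher (Sqstm1, Becn1 and Gabarapl2) and 5 lower, beside 30.6% and 27.6% of all tested genes. Metformin pretreatment raised 4 of the 10 members under LPS (Sqstm1, Ulk1, Gabarapl1 and Uvrag) and lowered 1 (Map1lc3b), beside 14.5% and 18% of all tested genes. After rescaling the counts were again 4 and 1, beside 15.6% and 17.4%. Fits without an LPS library called fewer of all tested genes in this comparison, and calls of Ulk1, Uvrag and Map1lc3b were lost in some of them. Without LPS library 1, Ulk1 had a log2 fold change of 0.495 and Uvrag of 0.39. Without LPS library 2, that of Map1lc3b was -0.27. With limma voom on the recovered reads 5 members were higher, with Rb1cc1 added, and 2 lower, with Becn1 added, beside 18.7% and 22.9% of all genes in that fit. In Met + LPS vs. untreated BMDMs, 1 member was higher and 8 were lower, beside 16.3% and 58.8% of all tested genes, or 3 and 3 after rescaling, beside 33.4% and 29.7%.

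**Figure D1:**
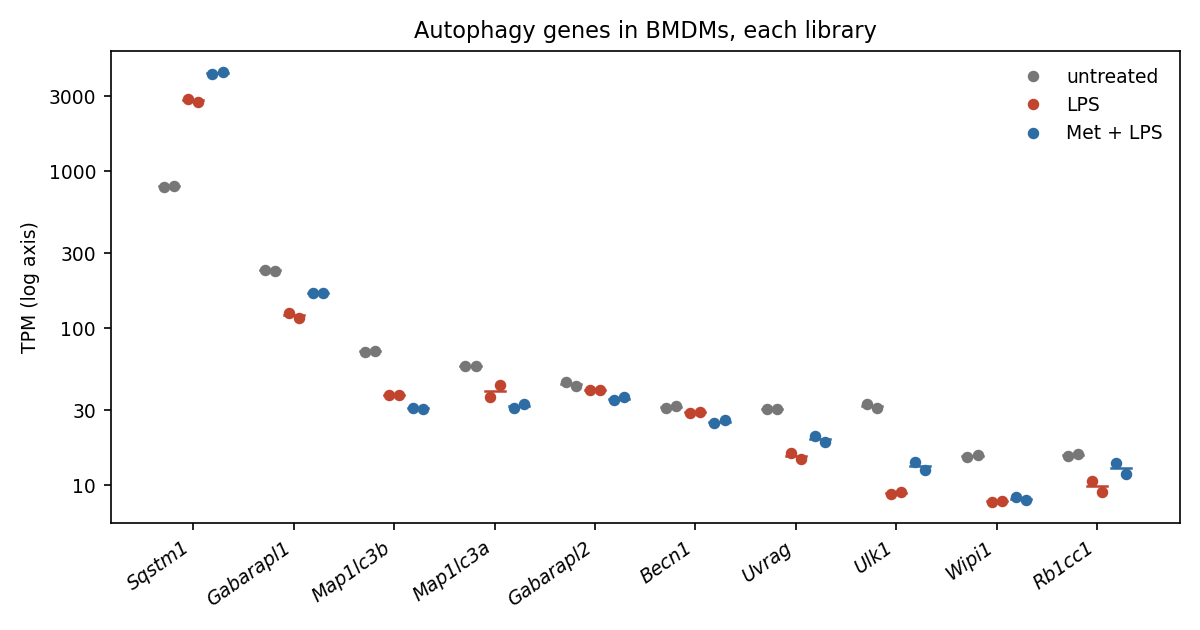
TPM of the 10 autophagy genes on a log axis in each of the 6 libraries (points) with group means (bars), 2 libraries per group. Sqstm1 lies above every other member and goes up from 804 TPM or less in untreated BMDMs to 4126 TPM or more in Met + LPS, while Ulk1 goes from at least 30.9 TPM to at most 9.06 TPM in LPS and lies between these in Met + LPS.

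The median log2 fold change over the 10 members was -0.75 for LPS vs. untreated, against -0.48 for all tested genes. For Met + LPS vs. LPS it was 0.19, against -0.03, and for Met + LPS vs. untreated -0.55, against -0.48. The last comparison shares its libraries with the other 2 and is no separate evidence. The study's own cut-offs are an absolute log2 value of 2 (LPS vs. untreated) and of 0.7 (Met + LPS vs. LPS). The study applied them to fold changes from another method, DESeq2. The values here are on log2(TPM + 1), so that passing or not passing is no statement about the study's own gene lists. In limma 6.08% and 8.28% of all tested genes passed these together with the adjusted p-value, and 0 of the 10 members did. No member's fold change reached either cut-off, whatever its p-value. Voom also gave 0, but it was not rescaled either, with the median gene at -0.52 for LPS vs. untreated. After rescaling, Sqstm1 passed the cut-off for LPS vs. untreated with 2.34, as did 6.21% of all tested genes.

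The sequences upstream of 4 members are shown because these were called both with LPS and with metformin under LPS and had the lowest adjusted p-values of the members in the latter comparison. The RefSeq promoter table for GRCm38.p6 matched 7 of the 10 members, and Map1lc3a, Becn1 and Rb1cc1 were not matched. Each sequence holds the 250 bases before the RefSeq start of the gene, 5′ to 3′ on the strand of the gene, with CpG dinucleotides in capitals. They lie at chr11:50210821-50211070 (minus strand) for Sqstm1, at chr6:129532942-129533191 (plus strand) for Gabarapl1, at chr5:110810082-110810331 (minus strand) for Ulk1 and at chr8:121590188-121590437 (plus strand) for Map1lc3b.
Sqstm1: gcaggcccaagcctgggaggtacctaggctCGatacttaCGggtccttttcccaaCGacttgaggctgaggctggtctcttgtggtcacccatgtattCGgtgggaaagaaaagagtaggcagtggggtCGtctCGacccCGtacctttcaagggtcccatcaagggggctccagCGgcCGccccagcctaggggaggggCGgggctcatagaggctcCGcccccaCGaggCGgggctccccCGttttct
Gabarapl1: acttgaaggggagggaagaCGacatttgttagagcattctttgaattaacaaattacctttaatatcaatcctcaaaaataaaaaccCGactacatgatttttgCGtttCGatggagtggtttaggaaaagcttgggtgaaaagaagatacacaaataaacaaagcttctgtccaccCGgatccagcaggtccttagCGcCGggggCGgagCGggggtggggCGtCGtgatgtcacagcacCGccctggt
Ulk1: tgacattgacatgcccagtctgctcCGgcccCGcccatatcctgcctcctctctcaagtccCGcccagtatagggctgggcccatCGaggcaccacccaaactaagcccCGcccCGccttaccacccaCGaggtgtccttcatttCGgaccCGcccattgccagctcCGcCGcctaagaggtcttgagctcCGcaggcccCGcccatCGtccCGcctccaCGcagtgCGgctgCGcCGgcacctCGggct
Map1lc3b: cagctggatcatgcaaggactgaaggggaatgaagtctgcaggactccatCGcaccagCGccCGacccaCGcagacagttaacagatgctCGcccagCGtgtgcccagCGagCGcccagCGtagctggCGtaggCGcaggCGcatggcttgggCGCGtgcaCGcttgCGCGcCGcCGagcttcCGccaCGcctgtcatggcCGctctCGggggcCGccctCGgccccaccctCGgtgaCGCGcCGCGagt
The upstream windows of Sqstm1, Ulk1 and Map1lc3b were rich in CpG, with 14, 20 and 30 of them and a GC content of 63.2%, 67.2% and 69.6%. That of Gabarapl1 held 12 CpG at a GC content of 46.8%. The median over 32851 such windows was 6 CpG and 52.4% GC. The 3 other matched members held 16 (Uvrag), 19 (Wipi1) and 12 (Gabarapl2) CpG. The RefSeq starts do not all coincide with the ends of the gene spans given below. The Wipi1 window (chr11:109611390-109611639) lies inside its span, and that of Map1lc3b ends past the listed gene start at 121590361.

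The 7 matched windows, extended to 50 bases after the start and so 300 bases long, were searched on both strands for 3 motifs. These were CACGTG, the core bound by TFEB and related factors, TGACNNNGC, the core of the antioxidant response element, and TGATGNAA, the form bound by ATF4 with its partners. Over all 32851 windows 7.15% held the first, 12.4% the second and 3.97% the third. In the 7 members the only match was in Map1lc3b, where bases 5 to 13 after the start (counted from 1 at the start) read tgactcggc, a TGACNNNGC match. For the other members this says only that these letters are not in this window, and distal sites were not searched.

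In the initiation complex, Ulk1 was the member with the largest decrease under LPS. Ulk1 (ENSMUSG00000029512, chr5:110784488-110810097, GRCm38) encodes the kinase that starts autophagosome formation. Its level was 32.7 and 30.9 TPM in the untreated libraries, 8.77 and 9.06 TPM in LPS and 14.0 and 12.4 TPM in Met + LPS. The 3 groups did not overlap, and Met + LPS lay between the other groups. LPS reduced Ulk1 by a log2 fold change of -1.73 (95% CI -1.90 to -1.56, adjusted p-value 1.71e-06, limma), a ratio of TPM of 0.280, and by -1.23 after rescaling. Metformin pretreatment raised it under LPS by 0.52 (0.35 to 0.69, adjusted p-value 0.00144), and 70.1% of the log2 decrease with LPS was still present in Met + LPS (56.5% after rescaling). Without LPS library 1 that increase was 0.49 with an adjusted p-value of 0.0115. Against untreated BMDMs, Ulk1 in Met + LPS was at -1.21, or -0.69 after rescaling. It ranked 560th from the lowest of the 12755 tested genes by its fold change with LPS.

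Rb1cc1 (ENSMUSG00000025907, chr1:6206197-6276648) encodes FIP200, the scaffold of the ULK1 complex. It measured 15.3 and 15.8 TPM in untreated BMDMs, 10.6 and 9.001 TPM in LPS and 13.8 and 11.7 TPM in Met + LPS. The order of the groups was that of Ulk1, with a wider spread between the libraries of the LPS and Met + LPS groups. LPS lowered Rb1cc1 by -0.62 (adjusted p-value 0.00103), but this was -0.13 and not called after rescaling (adjusted p-value 0.278, limma), and it lost the call without untreated library 1 (0.0122) or 2 (0.0152). The difference between Met + LPS and LPS was 0.35 with an adjusted p-value of 0.0272 and was not called, but voom called it (0.37, 2.39e-04). Met + LPS vs. untreated gave -0.27 (0.0415), and 0.24 after rescaling, neither of them called, while voom called a decrease (9.99e-04).

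The phosphoinositide 3-kinase complex is represented by Uvrag and Becn1, of which LPS lowered Uvrag. Uvrag (ENSMUSG00000035354, chr7:98885021-99141141) encodes a subunit of the form of the complex that acts in autophagosome and endosome maturation. Its level was 30.5 TPM in both untreated libraries, 16.1 and 14.7 TPM in LPS and 20.5 and 18.7 TPM in Met + LPS. As with Ulk1, Met + LPS lay between LPS and untreated BMDMs without overlap. LPS lowered Uvrag by -0.94 (95% CI -1.10 to -0.79, adjusted p-value 1.54e-05, limma), or -0.44 after rescaling (8.49e-04). Metformin raised it under LPS by 0.33 (0.18 to 0.48, adjusted p-value 0.00608), and leaving out any of the 6 libraries ended this call, with adjusted p-values from 0.0111 to 0.0347. Met + LPS vs. untreated gave -0.61 (1.15e-04), and -0.09 after rescaling, which was not called (0.216).

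Becn1 (ENSMUSG00000035086, chr11:101285952-101302286) encodes Beclin 1, the regulatory subunit common to both forms of that complex. Its TPM values were 30.9 and 32.1 in untreated BMDMs, 28.8 and 29.2 in LPS and 24.8 and 25.9 in Met + LPS. The order was untreated, LPS, Met + LPS, with small steps. LPS vs. untreated was -0.11 (adjusted p-value 0.0528, limma) and not called, whereas after rescaling Becn1 was higher in LPS by 0.39 (2.87e-04). Met + LPS vs. LPS was -0.19 (0.0147), also not called, but called lower by voom (-0.20, 0.00321). Between Met + LPS and untreated BMDMs the difference was -0.30 (7.38e-04), but 0.22 after rescaling (0.00449), so that its direction turns with the scaling.

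Wipi1 (ENSMUSG00000041895, chr11:109573331-109611967) encodes a protein that binds the phosphoinositide made by this complex. It measured 15.1 and 15.5 TPM in untreated BMDMs, 7.81 and 7.95 TPM in LPS and 8.40 and 7.99 TPM in Met + LPS. Both LPS-exposed groups lay far below the untreated one and close to each other. LPS lowered Wipi1 by -0.88 (adjusted p-value 1.43e-05, limma), or -0.39 after rescaling (0.00102). Met + LPS vs. LPS was 0.05 (95% CI -0.09 to 0.19, adjusted p-value 0.518), and 94.3% of the log2 decrease with LPS was present in Met + LPS (83.8% after rescaling).

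**Figure D2:**
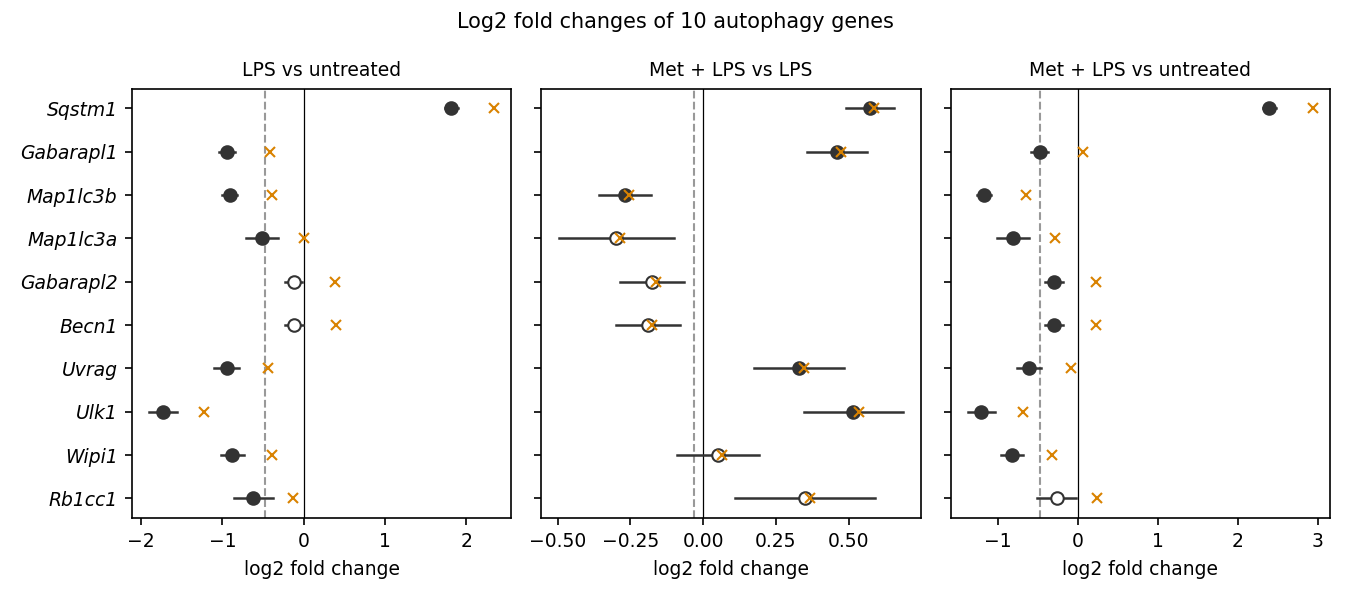
Log2 fold changes of the 10 members on the log2(TPM + 1) scale in 3 comparisons. Circles with bars are limma estimates with 95% confidence intervals (filled, called at an adjusted p-value under 0.01, open, not called), crosses are values after median-ratio rescaling, and the dashed line is the median tested gene. The crosses lie to the right of the circles in the 2 comparisons with untreated BMDMs and on or beside them in Met + LPS vs. LPS, where Sqstm1, Ulk1, Gabarapl1 and Uvrag are called higher and Map1lc3b lower.

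Of the 4 ATG8 family members, LPS lowered 3, and metformin under LPS raised 1 (Gabarapl1) and lowered 1 (Map1lc3b). The 3 that fell with LPS stand beside 60.1% of all tested genes. The metformin counts stand beside 14.5% of all tested genes called higher and 18% called lower. After rescaling, LPS lowered 2 (Map1lc3b and Gabarapl1), beside 27.6% of all tested genes, and raised Gabarapl2, beside 30.6%. Map1lc3b (ENSMUSG00000031812, chr8:121590361-121598760) encodes LC3B, the protein most used as a marker of autophagosomes. It measured 70.0 and 71.9 TPM in untreated BMDMs, 37.3 and 37.2 TPM in LPS and 30.9 and 30.7 TPM in Met + LPS. Each group lay below the one before it. LPS lowered Map1lc3b by -0.91 (adjusted p-value 1.72e-06, limma), or -0.39 after rescaling (1.02e-04). Metformin lowered it further under LPS by -0.27 (95% CI -0.36 to -0.18, adjusted p-value 0.00156), or -0.25 after rescaling (0.0018). The adjusted p-value was 0.0103 without LPS library 1 and 0.0105 without LPS library 2. Map1lc3b is thereby the only member called lower in all 3 comparisons, before and after rescaling.

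Gabarapl1 (ENSMUSG00000030161, chr6:129533160-129542346) encodes an ATG8 protein of the GABARAP branch. Its level was 234 and 231 TPM in untreated BMDMs, 125 and 116 TPM in LPS and 166 and 167 TPM in Met + LPS. The fall with LPS was close to that of Map1lc3b, but Met + LPS lay above LPS in both libraries. LPS lowered Gabarapl1 by -0.94 (adjusted p-value 2.56e-06, limma), or -0.42 after rescaling (1.28e-04). Metformin raised it under LPS by 0.46 (95% CI 0.36 to 0.56, adjusted p-value 2.76e-04), a ratio of TPM of 1.38. Met + LPS vs. untreated was -0.48 (4.99e-05), but 0.06 and not called after rescaling (0.257).

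Map1lc3a (ENSMUSG00000027602, chr2:155276297-155278073) encodes LC3A. It measured 57.0 and 57.1 TPM in untreated BMDMs, 36.2 and 43.3 TPM in LPS and 31.1 and 32.8 TPM in Met + LPS. The order of the groups was that of Map1lc3b, with LPS library 2 standing above LPS library 1. LPS lowered Map1lc3a by -0.52 (adjusted p-value 9.30e-04, limma), but after rescaling the value was -0.0014 (0.989), and the call was lost without untreated library 1 (0.0129) or 2 (0.013). Met + LPS vs. LPS was -0.30 (0.0234) and not called, although it was called without LPS library 1 (-0.43, 0.0036). Met + LPS vs. untreated was -0.82 (9.42e-05), and -0.29 after rescaling, which was not called (0.0195).

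Gabarapl2 (ENSMUSG00000031950, chr8:111940703-111953612) encodes GATE-16, another GABARAP-branch protein. It measured 45.0 and 42.9 TPM in untreated BMDMs, 40.3 TPM in both LPS libraries and 34.7 and 36.4 TPM in Met + LPS. As for Becn1, the steps between groups were small. LPS vs. untreated was -0.12 (adjusted p-value 0.0391, limma) and not called, against 0.39 after rescaling (3.25e-04), and Met + LPS vs. LPS was -0.18 (0.0187). Met + LPS vs. untreated was -0.30 (7.52e-04) and 0.23 after rescaling (0.00398), so that this direction, too, turns with the scaling.

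The make-up of the ATG8 transcripts is described by ratios within a library, which rescaling does not touch and which were not tested. Gabarapl1 accounted for 57.7% and 57.4% of the summed TPM of the 4 members in untreated BMDMs, 52.5% and 49.0% in LPS and 63.2% and 62.5% in Met + LPS. Map1lc3a and Map1lc3b together made up 31.3% and 32.0%, 30.7% and 34.0%, and 23.6% and 23.8% in the same order. The share of Gabarapl1 was thus higher in Met + LPS than in every other library, and that of the LC3 genes lower. Gabarap, a further ATG8 gene that is not a member, was more abundant than the 4 members together, at 867 and 854 TPM in untreated BMDMs, 749 and 698 TPM in LPS and 672 and 717 TPM in Met + LPS. LPS vs. untreated gave -0.25 for Gabarap, but 0.28 after rescaling, both called, so that its direction turns with the scaling. The same held for Met + LPS vs. untreated (-0.31, but 0.23 after rescaling, both called). From LPS to Met + LPS Gabarap differed by -0.06 on the log2 scale and was not called.

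**Figure D3:**
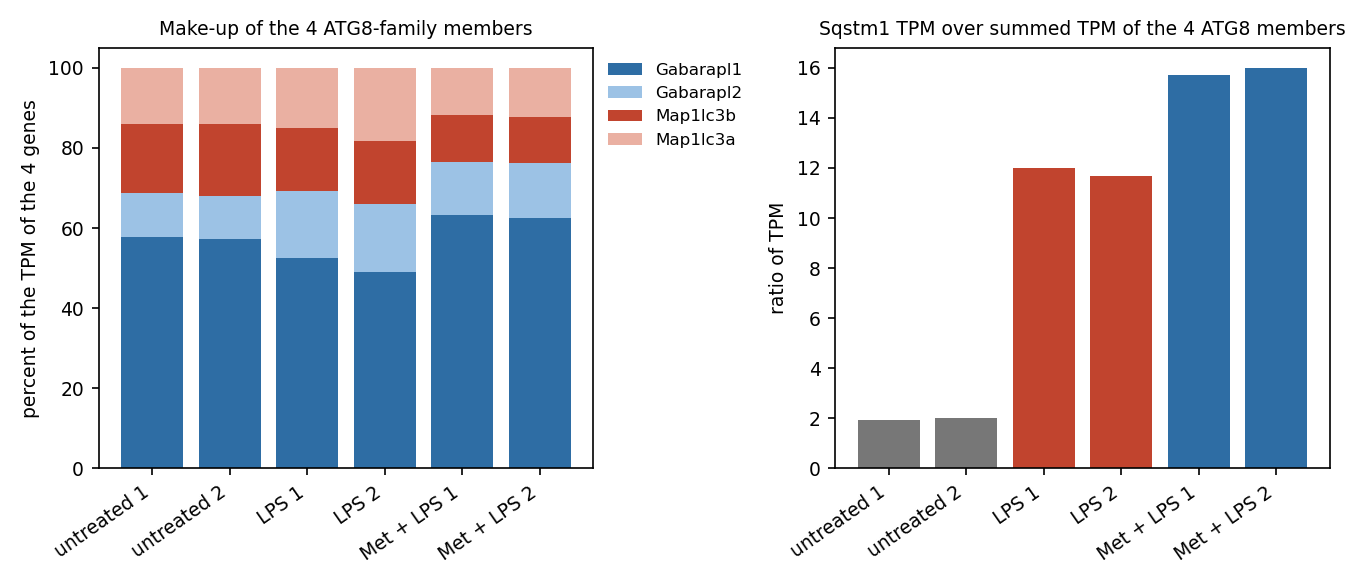
Left, share of each of 4 ATG8 family members in their summed TPM, in percent, for each library. Right, TPM of Sqstm1 divided by the summed TPM of these 4 genes. The share of Gabarapl1 is 62.5% and 63.2% in Met + LPS and at most 57.7% elsewhere, and the Sqstm1 ratio is at most 2.00 in untreated BMDMs, at most 11.99 in LPS and at least 15.7 in Met + LPS.

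Sqstm1, the cargo receptor among the members, rose with LPS and rose further with metformin, before and after rescaling. Sqstm1 (ENSMUSG00000015837, chr11:50199366-50210827) encodes p62, a receptor for ubiquitin-tagged cargo that is itself degraded by autophagy and also takes part in NF-κB and NRF2 signalling. Its level was 793 and 804 TPM in untreated BMDMs, 2868 and 2767 TPM in LPS and 4126 and 4264 TPM in Met + LPS. The steps between the groups were many times the difference between libraries of a group. LPS raised Sqstm1 by 1.82 (95% CI 1.73 to 1.90, adjusted p-value 5.46e-08, limma), a ratio of TPM of 3.53, and by 2.34 after rescaling. Metformin raised it under LPS by 0.57 (0.49 to 0.66, adjusted p-value 5.31e-05), a ratio of 1.49, and by 0.59 after rescaling. Against untreated BMDMs, Met + LPS was higher by 2.39, a ratio of 5.25, or by 2.93 after rescaling. Of the log2 change with LPS, 132% was present in Met + LPS (125% after rescaling). Leaving out each library in turn kept the log2 fold change of Met + LPS vs. LPS between 0.55 and 0.60.

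By its level, Sqstm1 ranked 126th of all listed genes in untreated BMDMs, 44th in LPS and 25th in Met + LPS. By its fold change it ranked 548th from the highest of the 12755 tested genes for LPS vs. untreated and 943rd for Met + LPS vs. LPS. It held 59.9% and 60.4% of the summed TPM of the 10 members in untreated BMDMs, 90.2% and 90.0% in LPS and 92.3% and 92.6% in Met + LPS. The sum of the other 9 members was 531 and 528 TPM, 311 and 307 TPM, and 344 and 343 TPM in the same order. These sums are before rescaling, which divides the untreated libraries by 1.287 and 1.293 and the others by 0.8866 to 0.8982. The distance from untreated BMDMs thus depends on the scaling. Sqstm1 transcripts were 1.95 and 2.00 times the summed TPM of the 4 ATG8 members in untreated BMDMs, 11.99 and 11.68 times in LPS and 15.7 and 16.0 times in Met + LPS. The ratio of Sqstm1 to Map1lc3b alone was 11.3 and 11.2, 77.0 and 74.3, and 134 and 139 in the same order.

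The genes with profiles nearest to Sqstm1 over the 6 libraries, by the Euclidean distance of log2(TPM + 1) after subtracting each gene's mean, were Ifrd1 (distance 0.143), Il17ra (0.224), Dyrk2 (0.236), Osgin2 (0.237) and Prdm1 (0.245). Ifrd1 went from a mean of 17.8 TPM in untreated BMDMs to means of 64.7 TPM and 97.0 TPM in LPS and Met + LPS. Nearest to Ulk1 were Cep95 (0.0548), Rxra (0.0876), Slc29a3 (0.115), Mkl1 (0.129) and Tpra1 (0.134). Rxra went from a mean of 34.9 TPM to 10.1 TPM and 14.3 TPM. These lists were selected for likeness from all tested genes and are descriptions with no test.

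Exons of 6 members overlap those of a gene on the other strand, and some of their reads cannot be assigned with certainty. Becn1 shares 43.9% of its exon bases with Cntd1, Gabarapl1 28.3% with 1700101I11Rik, Uvrag 17.6% with Gm45187 and Sqstm1 17.3% with Mrnip. For Rb1cc1 it is 3.80% with 4732440D04Rik and for Map1lc3b 0.772% with Zcchc14. The strand setting of the counting is not given in the sources used here, so that reads from these overlaps cannot be told apart without it. The overlapping genes were listed at no more than 0.178 TPM for Cntd1, 0.598 TPM for 1700101I11Rik, 0 TPM for Gm45187, 1.57 TPM for Mrnip, 1.98 TPM for 4732440D04Rik and 10.1 TPM for Zcchc14 in any library. Related copies elsewhere share sequence with Gabarapl2, for which 84.7% of 31-base stretches were its own, and with Map1lc3b and Rb1cc1, for which 91.4% and 87.3% were.

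The other genes of the pathway were read from a list of 49, of which 48 were tested and Ccpg1, a receptor for the endoplasmic reticulum, was not, at 0.186 TPM or less in every library. LPS raised 2 of the 48 and lowered 36, beside 16.2% and 60.1% of all tested genes, with a median log2 fold change of -0.66 against -0.48. After rescaling 12 were higher and 21 lower, beside 30.6% and 27.6%. Metformin under LPS raised 14 and lowered 6, beside 14.5% and 18% of all tested genes, with a median of 0.04 against -0.03. With voom on the recovered reads 18 were higher and 12 lower, beside 18.7% and 22.9%. In Met + LPS vs. untreated, 3 were higher and 39 lower, beside 16.3% and 58.8%, with a median of -0.65 against -0.48, or 10 and 18 after rescaling, beside 33.4% and 29.7%. The 2 genes raised by LPS both before and after rescaling were the cargo receptors Optn (optineurin, which also acts on damaged mitochondria and bacteria) and Tax1bp1.

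**Figure D4:**
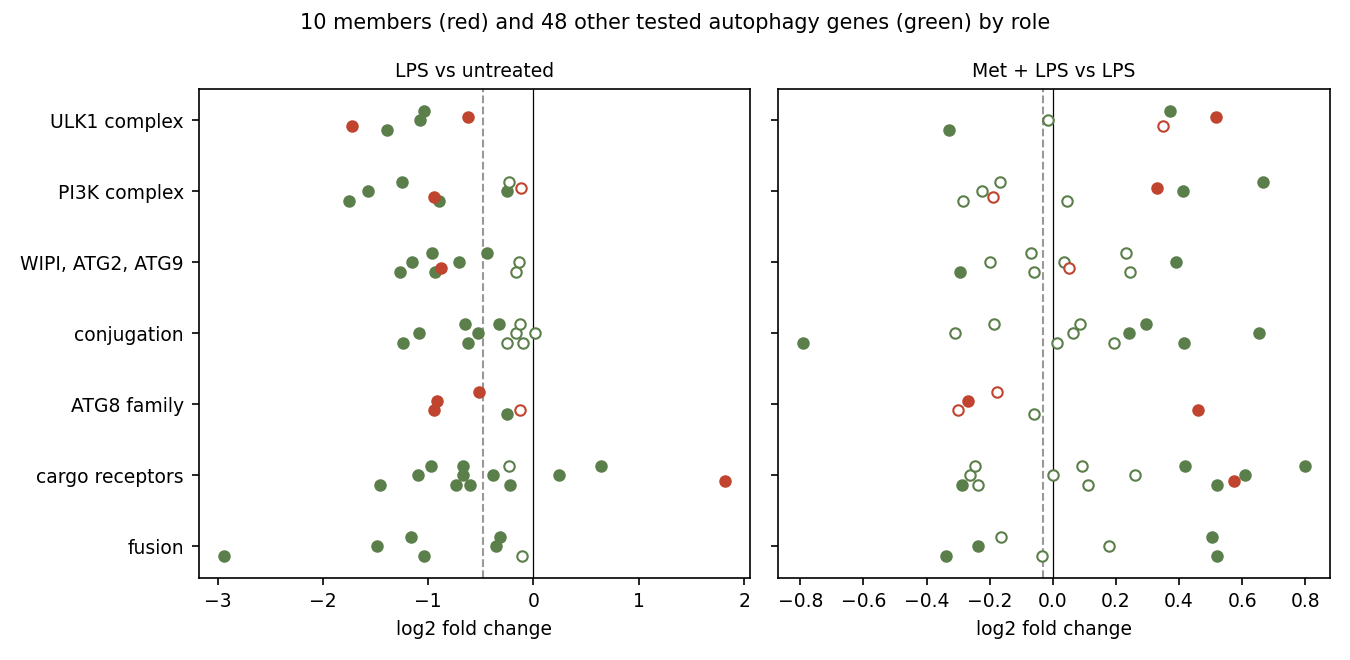
Log2 fold changes of the 10 members (red) and of 48 other tested autophagy genes (green), each point a gene, in rows by role, for LPS vs. untreated (left) and Met + LPS vs. LPS (right). Filled points were called at an adjusted p-value under 0.01 and the dashed line is the median tested gene. Under LPS, Sqstm1 at 1.82, Optn at 0.64 and Tax1bp1 at 0.24 are the called points to the right of 0. The plot shows values before rescaling, after which 3 members and 12 other genes of several roles are called higher, beside 30.6% of all tested genes.

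Among the cargo receptors, Optn was, like Sqstm1, higher in LPS and higher again in Met + LPS, with 38.9 and 33.2 TPM in untreated BMDMs, 59.7 and 53.8 TPM in LPS and 102 and 96.1 TPM in Met + LPS. Its log2 fold changes were 0.64 with LPS (adjusted p-value 3.84e-04, limma), or 1.16 after rescaling, and 0.80 with metformin under LPS (4.99e-04), which passed the cut-off of the study. Tax1bp1, a receptor that also restrains NF-κB signalling, measured 89.0 and 88.7 TPM, 107 and 103 TPM, and 164 and 158 TPM in the same order, with log2 fold changes of 0.24 with LPS (0.76 after rescaling) and 0.61 with metformin under LPS. Nbr1, the receptor most like p62 in its domains, went the other way with LPS, from 106 TPM in both untreated libraries to 38.4 and 37.6 TPM, and was at 53.2 and 49.1 TPM in Met + LPS. Of the 12 other receptors tested, LPS raised 2 and lowered 9, beside 16.2% and 60.1% of all tested genes. After rescaling 3 were higher and 4 lower, beside 30.6% and 27.6%, and Tollip turned from -0.22 to 0.30, both called. Metformin under LPS raised 4 (Optn, Tax1bp1, Tollip and Nbr1) and lowered 1 (Wdfy3), beside 14.5% and 18%. Against untreated BMDMs, Met + LPS was higher for Optn (1.44, or 1.97 after rescaling), Tax1bp1 (0.85, or 1.38) and Tollip (0.30, or 0.83). It was lower for Ncoa4, the receptor for ferritin (-1.35, or -0.82).

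The largest decrease with LPS in the list was that of Plekhm1, an adaptor for the fusion of autophagosomes and lysosomes. It fell from 205 and 202 TPM to 24.9 and 26.4 TPM, a log2 fold change of -2.94 (-2.42 after rescaling). It was the only gene of the list past the study's cut-off in this comparison, beside 6.08% of all tested genes. In Met + LPS it was at 38.9 and 34.7 TPM, 0.51 higher than in LPS and still -2.44 from untreated BMDMs (-1.90 after rescaling). The next largest decreases with LPS were those of Rubcn (-1.76), an inhibitor of the phosphoinositide 3-kinase complex, its subunit Atg14 (-1.58), the tethering factor Tecpr1 (-1.49) and Nbr1 (-1.46). After rescaling these were -1.25, -1.09, -0.97 and -0.94, all called. The 3 other genes of the ULK1 complex (Ulk2, Atg13 and Atg101) fell with LPS, with a median of -1.08 (-0.56 after rescaling). This stands beside 60.1% of all tested genes called lower, or 27.6% after rescaling. Metformin under LPS raised Atg13, from 24.5 and 27.0 TPM to 33.8 and 33.4 TPM, lowered Atg101, from 18.8 and 20.6 TPM to 14.9 and 16.1 TPM, and left Ulk2 uncalled.

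With metformin under LPS, the largest increases in the list were those of Optn (0.80), Atg14 (0.67), Atg4c (0.65), a protease that processes ATG8 proteins, Tax1bp1 (0.61) and Epg5 (0.52), a tether between autophagosomes and lysosomes. Atg14 went from 6.26 and 7.10 TPM in LPS to 11.8 and 10.6 TPM in Met + LPS. The largest called decreases were those of Atg10 (-0.79), the enzyme that joins ATG12 to ATG5, and of the fusion factor Stx17 (-0.34). Those of Atg101 (-0.33), the membrane scramblase Atg9a (-0.29) and Wdfy3 (-0.29) came next, while Atg16l1 (-0.31) was not called. Atg10 went from 15.7 and 14.6 TPM to 8.93 and 7.76 TPM. Beside 8.28% of all tested genes, Atg10 and Optn were the 2 of the 48 genes past the study's cut-off. Without Met + LPS library 2, Atg10 was at -0.70 and just short of it, while Atg14 (0.74) and Atg4c (0.77) passed. Without LPS library 2, Atg14 was at 0.7452 and Atg4c at 0.7048, and with a pseudocount of 0.1 they were at 0.7357 and 0.701. With voom 3 genes of the list passed (Optn, Atg10 and Atg14), beside 1415 of the 12750 genes in that fit. Optn, Atg14, Tax1bp1 and Atg10 kept their calls whichever library was left out. Atg4c, Epg5, Stx17, Atg101, Atg9a and Wdfy3 lost theirs without at least 1 library, with adjusted p-values of up to 0.0282. Compared with untreated BMDMs, the decreases in Met + LPS were largest for Plekhm1, Atg101 (-1.72), Stx17 (-1.50), Ncoa4 and Rubcn (-1.34). For Atg101, Stx17 and Rubcn they were -1.20, -0.99 and -0.83 after rescaling.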

How the data were processed

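RNA-seq libraries of BMDMs were analysed in 3 groups of 2, grouped by the sample descriptions. According to the methods and processing notes, libraries of poly-A RNA were sequenced single-end, and the authors mapped the reads with STAR 2.6.1d to GRCm38, used SAMtools 1.9, and counted reads per gene with featureCounts of Subread 1.6.3. The authors deposited TPM values, read counts per gene length brought to a common total for each library, and how they were computed is not given in the sources used here. No replicates were pooled.

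The 12755 genes that reached 1 TPM in 2 or more libraries were tested in limma 3.58.1 (R 4.3.3) after log2 transformation with a pseudocount of 1. A single lmFit model held the 6 libraries, leaving 3 residual degrees of freedom, eBayes used the mean-variance trend, and p-values were adjusted after Benjamini-Hochberg for every gene tested. The fit was also run on simulated reads, with some genes changed in Met + LPS against LPS only and a common dispersion for all genes. Those changes were larger than that of any member in this comparison. The simulated reads held no change with LPS and no shift of the median gene. They say nothing of the comparisons with untreated BMDMs. Tables used Python 3.11.15, numpy 2.4.6 and pandas 2.3.3, and plots matplotlib 3.10.9. The product of TPM and exon length was a whole multiple of a common step, within 0.05, for 96.43% to 96.65% of non-zero values, which gave the number of reads. Exon lengths came from a GENCODE annotation of GRCm38 for 54495 genes. Between libraries of a group, counts differed by more than counting noise (chi-square per gene 1.92 to 3.54).

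Alternatives tried were median-ratio rescaling, a pseudocount of 0.1, a minimum of 5 TPM or no filter, the compared groups only, a replicate block, eBayes without trend, an adjusted p-value under 0.05, limma voom on the recovered reads and leaving out each library. The sample titles mark libraries 1 as A and libraries 2 as B in each group, without saying what the letters mean. The deviations of same-numbered libraries were correlated at -0.004, 0.028 and 0.006. With 2 libraries per group this cannot tell whether same-numbered libraries shared mice or a day. The libraries were fitted as unpaired, with the replicate block as an alternative. All 10 members are named, and of the other autophagy genes the 5 largest called increases and decreases in each comparison and those not tested. Further genes were named beside them after their values were seen, namely Gabarap, the other genes of the ULK1 complex, Nbr1 and Tollip among the receptors that metformin raised, and some of the macrophage markers. The members and lists were chosen with earlier results of these data known.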

Additional observations from a re-analysis of the deposited data

How the results depend on the processing

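Tracked were 55 fold changes, those of all members and the largest called ones of other autophagy genes in each comparison. Of 825 alternative values of these, 749 kept direction and side of the threshold, 59 lost the call, 11 gained it and 6 reversed. All 6 reversals came with median-ratio rescaling, which moves every comparison with untreated BMDMs by about the shift of the median gene. For LPS vs. untreated these were Becn1 (0.39) and Gabarapl2 (0.39), and for Met + LPS vs. untreated Rb1cc1 (0.24), Becn1 (0.22), Gabarapl1 (0.055) and Gabarapl2 (0.23). Of these, only Becn1 and Gabarapl2 in Met + LPS vs. untreated were called both before and after rescaling. The 55 leave out most fold changes of the other autophagy genes, and some of those also turned. In LPS vs. untreated, Tollip went from -0.22 to 0.30 and Gabarap from -0.25 to 0.28, called before and after rescaling. Further genes of the list turned as well. Under this rescaling the members higher in LPS vs. untreated went from 1 to 3, beside 16.2% and 30.6% of all tested genes. Those past the study's cut-off went from 0 to 1, beside 6.08% and 6.21%. In Met + LPS vs. untreated the counts became 3 higher and 3 lower, beside 33.4% and 29.7%.

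For Met + LPS vs. LPS the members lower were 1, beside 18% of all tested genes, and 2 with voom on the recovered reads, beside 22.9%. At an adjusted p-value under 0.05 they were 4, beside 3372 of the 12755 tested genes. With a minimum of 5 TPM they were 2, in a fit that called 4469 genes in either direction. Leaving out a library gave 2 to 3 members higher, against 4, and 0 to 1 lower. All tested genes called in this comparison were 4156, 2662 with the compared groups only, and 2561 to 2759 with a library left out. These fits have fewer samples. In LPS vs. untreated, leaving out a library kept Sqstm1 between 1.79 and 1.84 and Ulk1 between -1.77 and -1.69. Rb1cc1 stayed between -0.73 and -0.51 and Map1lc3a between -0.64 and -0.39. In Met + LPS vs. untreated, Sqstm1 stayed between 2.368 and 2.415 and Ulk1 between -1.29 and -1.13. A fit with the replicate number as a block gave 3956 called genes in Met + LPS vs. LPS and changed none of the calls of the 55 fold changes. A pseudocount of 0.1 changed none either.

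Each member rests on at least 256 reads in every library, and both this depth and the 2 libraries per group limit the precision. Outliers were not looked for in groups of 2.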
